A study of Homo sapiens with 4 samples.

Results

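The genes described here are 48 human genes that act in G2 and mitosis: mitotic cyclins and their kinase, other mitotic kinases, spindle and kinetochore proteins, checkpoint proteins and cytokinesis proteins. They were taken by symbol from a list, with no cut on their measured values. The list was, however, chosen with earlier results of these data known. All 48 were found among the 25277 symbols of the deposited table. Gene expression had been measured by RNA sequencing in Z138 and Mino, 2 established cell lines of mantle cell lymphoma, a B cell cancer. In each line a stable culture with a small hairpin against BTK (shBTK) was set against a stable culture with a control vector (sc4). Both vectors belonged to a tet-on system, and every culture, controls included, had received doxycycline for 48 hours. The groups were Z138 shBTK, Z138 control, Mino shBTK and Mino control, with 1 library each, so no value below has a replicate within a line. The insert of the control vector is not stated, nor is whether a stable culture was 1 clone.

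Cells raise the transcripts of these genes as they pass from S phase into mitosis and clear many of the proteins when mitosis ends. Cyclin B with CDK1 drives entry into mitosis, the kinetochore and spindle proteins move the chromosomes, the spindle checkpoint delays their separation, and the anaphase-promoting complex ends the phase by marking cyclins and securin for destruction. Many of the genes are controlled together, through a promoter element called the cell cycle genes homology region, which MuvB complexes bind, and through CCAAT boxes, which NF-Y binds. In bulk RNA, fewer cells in G2 and mitosis and less mitotic RNA per cell cannot be told apart.

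The upstream sequences of 5 of the genes are shown because they span what the results describe. PLK1 was a highly expressed kinase gene, MKI67 and KIF20A had the lowest Mino ratios, HMMR had 1 of the highest Z138 ratios and CENPF was high in Z138 and low in Mino. Each line gives the 150 bases before the transcript start in RefSeq (GRCh38.p14), read 5′ to 3′ on the gene's strand. Capitals mark matches to TTTGAA or CCAAT on either strand.
PLK1, chr16:23678739-23678888, plus strand: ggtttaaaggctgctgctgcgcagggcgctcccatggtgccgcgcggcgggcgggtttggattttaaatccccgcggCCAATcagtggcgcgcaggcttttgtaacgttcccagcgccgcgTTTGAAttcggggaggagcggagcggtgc
MKI67, chr10:128126424-128126573, minus strand: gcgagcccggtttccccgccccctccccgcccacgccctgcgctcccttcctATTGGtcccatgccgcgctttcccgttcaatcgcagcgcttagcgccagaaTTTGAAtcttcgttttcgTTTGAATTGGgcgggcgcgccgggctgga
HMMR, chr5:163460482-163460631, plus strand: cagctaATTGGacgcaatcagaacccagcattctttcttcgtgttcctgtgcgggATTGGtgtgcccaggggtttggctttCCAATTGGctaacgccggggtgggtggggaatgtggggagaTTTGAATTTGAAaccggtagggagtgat
CENPF, chr1:214603045-214603194, plus strand: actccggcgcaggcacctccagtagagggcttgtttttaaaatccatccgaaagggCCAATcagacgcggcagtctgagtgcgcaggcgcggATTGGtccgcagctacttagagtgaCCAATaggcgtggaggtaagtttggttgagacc
KIF20A, chr5:138178962-138179111, plus strand: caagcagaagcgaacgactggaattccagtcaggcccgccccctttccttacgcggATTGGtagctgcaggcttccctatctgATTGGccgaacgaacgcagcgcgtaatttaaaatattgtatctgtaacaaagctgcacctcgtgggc
In the PLK1 sequence the TTTGAA match began 29 bases and the CCAAT match 73 bases before the start. MKI67 had TTTGAA matches beginning 47 and 29 bases before the start, the second of which overlapped a CCAAT match on the other strand. HMMR had TTTGAA matches 28 and 22 bases before the start. CENPF and KIF20A had CCAAT matches alone in these 150 bases; the TTTGAA match of CENPF lay downstream of the start, at base 41 of the transcript.

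Over the window of 250 bases before to 50 after each start, 40 of the 48 genes had an entry in the RefSeq table, with 50 promoters among them. AURKA, BIRC5, BUB3, FOXM1, RACGAP1, TPX2, TTK and UBE2C had none there. TTTGAA was found on either strand in 32 of the 50 promoters, or 64.0%, against 15.2% of all 35116 promoters in the table and 10.2% of the promoters of tested symbols. CCAAT was found in 76.0% of the members' promoters, against 34.6% of all promoters, and 48.0% of them held at least 2 matches, against 10.8%. Of the 46 TTTGAA matches in the members' promoters, 67.4% began within 50 bases of the start, against 27.2% of the matches in all promoters. Windows of the same gene can overlap, so a site can count more than once, as for CDC25C and ECT2. By gene, 29 of 40 had TTTGAA, 33 had CCAAT and 3 (CENPE, CKAP2 and KIF2C) had neither. A match is a run of letters, and binding was not measured.

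As a check of the libraries, BTK was at 12.4 FPKM (fragments scaled to transcript length and to library size) in Z138 shBTK against 51.0 in Z138 control, and at 9.84 in Mino shBTK against 37.0 in Mino control (mean log2 ratio −1.88, SE 0.13, adjusted p = 0.000964 in limma). BTK did not pass without a filter on low values or without the line term. Of 7 B cell markers, CD79A and CD79B were at 271 FPKM or more in every library, CD22 was at 5.96 and 3.34 FPKM in the Z138 libraries and at 102 and 107 in the Mino libraries, and CD5 was at 2.33 FPKM or less throughout, and the mantle cell lymphoma marker SOX11 was at 19.8 to 23.6 FPKM. The cyclin D1 gene CCND1, whose translocation marks this lymphoma, was at 600.5 and 591 FPKM in the Z138 libraries and at only 2.62 and 3.18 in the Mino libraries. In the libraries labelled Mino this low CCND1 level stood beside SOX11 at 21.5 and 23.6 FPKM (shBTK and control). Whether the Mino label holds was not tested, so every Mino value here is that of the libraries labelled Mino. Summed over 4 genes each, T cell markers came to 0.161 to 4.65 FPKM and myeloid markers to 0.147 to 0.482, and CD2 was listed at 0 in all 4 libraries. The T cell sums of the Z138 libraries were nearly all CD3E and CD3G. CD3E was at 2.07 and 1.69 FPKM in Z138 (shBTK and control) and at 0.161 and 0.0859 in Mino. CD3G was at 2.48 and 2.71 FPKM in Z138 and listed at 0 in Mino. The 3 stromal markers summed to 0.679 to 4.59 FPKM, nearly all of it COL1A1, and DCN was listed at 0 throughout. Read depth is unknown. A value of 0 can be a failed estimate in this table: EEF1A1 was listed at 0 in Z138 control and at 6404 to 6976 FPKM elsewhere, and the tubulin gene TUBB was at 0 in all 4 libraries. None of the 48 genes had a 0, and each passed the filter of a mean of at least 1 FPKM.

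The 48 genes were well expressed in both lines. Their median was 25.6 FPKM in Z138 shBTK, 23.9 in Z138 control, 34.0 in Mino shBTK and 38.2 in Mino control, while the median of all 11484 tested symbols lay between 9.32 and 10.7 FPKM. Together they made up 0.261% of the summed FPKM in Z138 shBTK and 0.240% in Z138 control, and 0.385% in Mino shBTK and 0.416% in Mino control. MKI67, TOP2A, CCNB1 and CDK1, which mark cycling cells, were all at 16.4 FPKM or more in every library. FPKM are per length, which allows a rough ranking of genes by level. Effects of GC content, shared exons or failed estimates on the levels were not removed. The highest level belonged to PTTG1 in Mino (333 FPKM in shBTK and 339 in control), followed by the CDK subunit gene CKS2 (233 and 255), and the lowest to CENPE in Z138 control (2.85 FPKM).

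The main question was how the 48 genes differed between the BTK hairpin and control. They leaned in opposite directions in the lines: most were slightly higher in the Z138 hairpin library and slightly lower in the Mino hairpin library. In Z138 37 of 48 were above control, where 55.3% of all tested symbols were. In Mino 41 of 48 were below control, where 51.9% of all symbols were. The combination, above control in Z138 and below it in Mino, was seen in 34 of 48 genes and in 32.1% of all symbols. The reverse combination was seen in 4 genes (24.1% of all symbols), 7 were below control in both lines (19.4%) and 3 above it in both (23.1%). The median log2 ratio, on the scale of log2(FPKM + 1), was 0.15 in Z138 and −0.15 in Mino, and that of all tested symbols was 0.03 in Z138 and −0.01 in Mino.

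The differences were small. Past a log2 ratio of 0.32 on the scale of FPKM + 1, 4 genes were higher in the Z138 hairpin library, or 8.33%, against 5.32% of all symbols, and 0 were lower, against 4.17%. In Mino 6 genes were lower past that floor in the hairpin library, or 12.5%, against 5.75%, and 0 were higher, against 4.44%. On that scale none of the 48 reached 1.5-fold in either line, which 1.76% of all symbols did in Z138 and 2.16% in Mino. In FPKM itself, with nothing added, 7 genes were higher past the same fold in Z138 and 7 were lower past it in Mino. The share of all symbols past it in FPKM itself was not counted, so these counts have no background beside them. By this measure CENPE reached 1.54-fold in Z138. With 1 library per group these ratios have no replicate check and no test within a line, and no test could be made of how the lines differ in them.

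**Figure D1:**
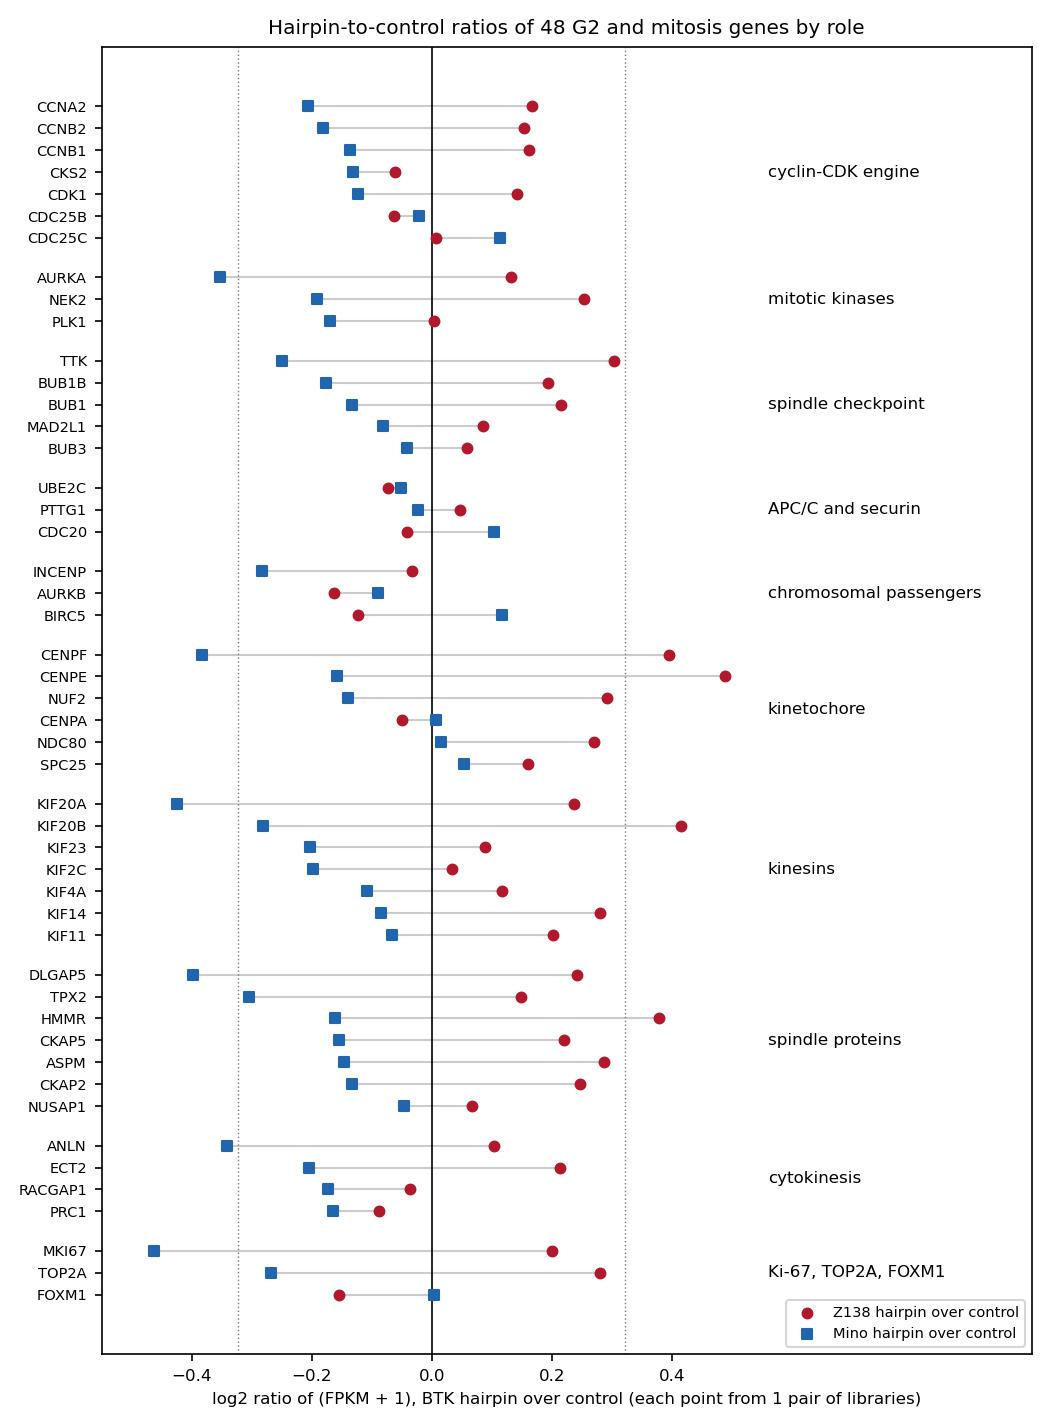
Log2 ratio of (FPKM + 1), hairpin over control, for each of the 48 genes (rows, grouped by role) in Z138 (red circles) and Mino (blue squares), each point from 1 pair of libraries; dotted lines mark a ratio of 0.32 either way. Most rows have the Z138 point right of 0 and the Mino point left of 0, as in 34 of 48 genes, and of the APC/C, securin and chromosomal passenger rows PTTG1 has this split.

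Tested across both lines, none of the 48 genes passed. In limma, with line and hairpin as terms, 0 members were called higher and 0 lower, where 0.0610% of all symbols were called in each direction. Also 0 of the 48 had an unadjusted p under 0.05 in limma, where 2.79% of all symbols did, so these counts are near the background. The mean log2 ratios ran from −0.16 for INCENP (SE 0.13, adjusted p = 1.00 in limma) to 0.17 for CENPE (SE 0.18, adjusted p = 1.00 in limma). Opposite ratios in the lines cancel in this mean. Its SE draws on 1 residual degree of freedom of the gene itself and 6.89 borrowed from all genes. A mean near 0 here does not show that a gene was alike in hairpin and control.

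**Figure D2:**
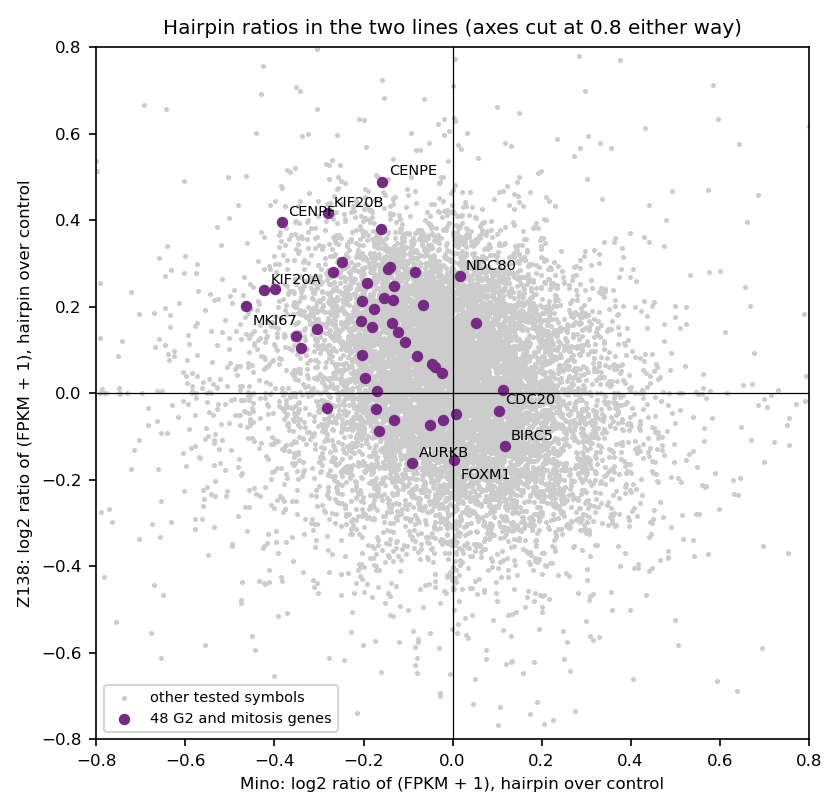
Log2 ratio of (FPKM + 1), hairpin over control, in Mino (horizontal) and Z138 (vertical) for the 48 genes (purple) and all other tested symbols (grey); 208 symbols lie outside the axes. The purple points gather at the upper left, with CENPF, CENPE, KIF20B, KIF20A and MKI67 at its edge.

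The cyclin and CDK genes followed this lean, with 5 of 7 above control in Z138 and 6 of 7 below it in Mino. The counts were 4 and 6 under median-of-ratios scaling and with the GC trend alone removed. They became 6 and 6 with the GC and length trends removed. CCNB1, a mitotic cyclin gene, was at 51.5 FPKM in Z138 shBTK against 45.9 in Z138 control, and at 73.7 in Mino shBTK against 81.1 in Mino control. CCNB2, the other B-type cyclin here, was at 55.9 against 50.1 FPKM in Z138 and at 91.2 against 103 in Mino (hairpin against control). The cyclin A gene CCNA2, which acts in S phase and G2, was at 26.7 against 23.7 and at 40.7 against 47.1. All of these cyclins were thus higher in the hairpin library in Z138 and lower in Mino, with log2 ratios of 0.15 to 0.17 in Z138 and −0.21 to −0.14 in Mino. Their kinase CDK1 had 39.7 FPKM in Z138 shBTK and 35.9 in Z138 control, and 46.7 in Mino shBTK and 50.9 in Mino control. The Z138 log2 ratio of CDK1, 0.14 as deposited, became 0.03 with the GC and length trends removed. With the GC trend alone removed it was −0.01. CKS2, a small subunit of CDK complexes, was lower in both hairpin libraries, at 146 against 153 FPKM in Z138 and 233 against 255 in Mino. Of the phosphatases that activate CDK1, CDC25C was nearly level in Z138, at 4.51 against 4.49 FPKM, and higher in Mino, at 9.13 against 8.36. CDC25B was at 73.4 against 76.7 and at 42.7 against 43.4, though its Z138 ratio became 0.06 with the trends of GC content and length removed.

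All 3 genes of the other mitotic kinases were above control in Z138 and below it in Mino, except that PLK1 was below control in Z138 with median-of-ratios scaling (log2 ratio −0.05) and with the length trend alone removed (−0.01). AURKA, the Aurora kinase of the spindle poles, was at 24.5 FPKM in Z138 shBTK against 22.2 in Z138 control, and at 32.7 in Mino shBTK against 42.1 in Mino control. Its Mino log2 ratio of −0.35 was among the 5 lowest of the 48. NEK2, a centrosome kinase, was at 23.1 against 19.2 FPKM in Z138 and at 25.2 against 28.97 in Mino. PLK1, which acts from mitotic entry to cytokinesis, differed mainly in Mino, at 80.1 FPKM in shBTK against 90.2 in control; in Z138 it was at 76.1 against 75.9.

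The 5 spindle checkpoint genes had the same pattern as deposited, and 3 of 5 had it with the GC and length trends removed, BUB3 and MAD2L1 being the exceptions. TTK, the kinase at the head of the checkpoint, was at 10.7 FPKM in Z138 shBTK against 8.51 in Z138 control, and at 12.5 in Mino shBTK against 15.1 in Mino control, with log2 ratios of 0.30 and −0.25. BUB1, a kinetochore kinase, was at 95.6 against 82.2 FPKM in Z138 and at 35.2 against 38.7 in Mino. BUB1B, which encodes the checkpoint protein BUBR1, was at 22.5 against 19.5 and at 32.4 against 36.7. MAD2L1, whose product holds CDC20 inactive, had log2 ratios of 0.08 and −0.08, and BUB3, an adaptor for the BUB kinases, 0.06 in Z138 and −0.04 in Mino.

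Genes of the anaphase-promoting complex pathway had small ratios. CDC20, the activator of the complex in mitosis, was at 93.4 FPKM in Z138 shBTK against 96.1 in Z138 control and had a log2 ratio of 0.10 in Mino, the reverse of most members, but its Z138 ratio of −0.04 became 0.01 after rescaling to TPM and 0.10 with the GC and length trends removed. UBE2C, its ubiquitin-conjugating enzyme, had log2 ratios of −0.07 in Z138 and −0.05 in Mino. PTTG1, which encodes securin, was nearly level in each line, with 0.05 and −0.02, and with −0.01 in Z138 under median-of-ratios scaling.

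The chromosomal passenger genes were all below control in Z138, though INCENP changed sign under some settings (−0.03 as deposited, 0.02 after rescaling to TPM and 0.08 with the GC and length trends removed). AURKB, the kinase of the complex, was at 79.2 FPKM in Z138 shBTK against 88.7 in Z138 control, and at 121 in Mino shBTK against 129 in Mino control. Its Z138 log2 ratio of −0.16 was the lowest of the 48 as deposited and became −0.06 with the GC and length trends removed. CKS2 was then the lowest, at −0.24 against −0.06 as deposited. INCENP, the scaffold, was at 23.5 against 24.1 FPKM in Z138 and at 30.7 against 37.6 in Mino. BIRC5, which encodes survivin, ran opposite to most members, at 61.9 against 67.4 in Z138 and at 65.8 against 60.6 in Mino.

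Among the kinetochore genes were the highest and the third highest Z138 ratio. CENPE, a kinesin motor of the kinetochore, was at 4.40 FPKM in Z138 shBTK against 2.85 in Z138 control, and at 4.68 in Mino shBTK against 5.34 in Mino control. The Z138 log2 ratio of 0.49 was the highest of the 48. CENPF, a large kinetochore protein, was at 16.9 against 12.6 FPKM in Z138 and at 6.59 against 8.89 in Mino. It was past 0.32 in both lines, upward in Z138 (log2 ratio 0.40) and downward in Mino (−0.38). In this it was alone of the 48 with a pseudocount of 1, and together with KIF20B with a pseudocount of 0.1. With the GC and length trends removed CENPF was past 0.32 in neither line (0.26 in Z138 and −0.28 in Mino). The subunits of the NDC80 complex, which grips microtubules, were above control in Z138, with log2 ratios of 0.27 for NDC80, 0.29 for NUF2 and 0.16 for SPC25. In Mino they had 0.02, −0.14 and 0.05. CENPA, the centromeric histone, was at 14.8 against 15.3 FPKM in Z138 and at 25.2 against 25.1 in Mino.

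All 7 kinesin genes were above control in Z138 and below it in Mino, except that in Z138 KIF2C was at −0.02 with median-of-ratios scaling and KIF23 just under 0 with the GC trend removed, alone or with length. KIF20A, a cytokinesis motor, was at 13.0 FPKM in Z138 shBTK against 10.9 in Z138 control, and at 22.8 in Mino shBTK against 30.9 in Mino control. Its Mino log2 ratio of −0.42 was the second lowest of the 48. KIF20B was at 5.62 against 3.96 FPKM in Z138, a log2 ratio of 0.42, and at 3.56 against 4.54 in Mino. The other kinesin genes were milder: KIF14 had log2 ratios of 0.28 and −0.08, KIF11, the motor that separates the spindle poles, 0.20 and −0.07, and KIF4A, a chromosome motor, 0.12 and −0.11 (Z138 and Mino). KIF23, a motor of the central spindle, had 0.09 and −0.20, and KIF2C, which takes microtubules apart, 0.03 and −0.20. Exons of KIF20A overlap those of CDC23 and BRD8 on the other strand in GENCODE 29. BRD8 was at 16.7 against 14.1 FPKM in Z138 and at 21.1 against 26.5 in Mino. CDC23 was at 20.2 against 17.2 FPKM in Z138 and, the other way, at 21.9 against 18.9 in Mino. Reads from the shared bases cannot be told apart if counting ignored strand, which is not stated. How much of each gene is shared was not measured. Of the 48 genes, 14 share exon bases with a gene on the other strand, among them CCNA2, CDC25C, FOXM1, HMMR and KIF4A.

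The spindle protein genes were likewise split in 7 of 7, also under both other scalings and with the GC and length trends removed; with the GC trend alone removed NUSAP1 was at −0.03 in Z138. HMMR was at 14.2 FPKM in Z138 shBTK against 10.7 in Z138 control, and at 16.5 in Mino shBTK against 18.6 in Mino control. DLGAP5, whose product binds spindle microtubules, was at 11.3 against 9.43 FPKM in Z138 and at 23.4 against 31.1 in Mino, a Mino log2 ratio of −0.40. TPX2, the activator of Aurora A, was at 31.2 against 28.1 and at 51.7 against 64.0. ASPM, a protein of the spindle poles, had log2 ratios of 0.29 and −0.15, CKAP2 0.25 and −0.13, CKAP5, a microtubule polymerase gene, 0.22 and −0.15, and NUSAP1 0.07 and −0.05.

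Genes of cytokinesis were below control in Mino in 4 of 4 and above it in Z138 in 2 of 4 as deposited, in 3 of 4 after rescaling to TPM and in 1 of 4 with the GC and length trends removed, where ANLN was at −0.03. ANLN, which encodes anillin of the contractile ring, was at 8.15 FPKM in Z138 shBTK against 7.51 in Z138 control, and at 14.6 in Mino shBTK against 18.8 in Mino control. ECT2, the exchange factor that turns on RhoA at the cleavage site, had log2 ratios of 0.21 in Z138 and −0.20 in Mino. Its partner RACGAP1 had −0.04 and −0.17, and PRC1, which bundles the central spindle, −0.09 and −0.16.

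Of the last 3 genes, MKI67 had the lowest Mino ratio. This gene of the proliferation marker Ki-67 was at 18.9 FPKM in Z138 shBTK against 16.4 in Z138 control, and at 19.3 in Mino shBTK against 27.0 in Mino control (log2 ratios 0.20 and −0.46). TOP2A, the topoisomerase that untangles chromosomes, was at 60.6 against 49.7 FPKM in Z138 and at 89.7 against 108 in Mino. FOXM1, a transcription factor that drives many of these genes, was at 41.6 against 46.5 in Z138 and level in Mino, at 36.4 against 36.4. Its Z138 log2 ratio of −0.16 became −0.05 with the GC and length trends removed, and its Mino ratio of 0.00 became −0.03.

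**Figure D3:**
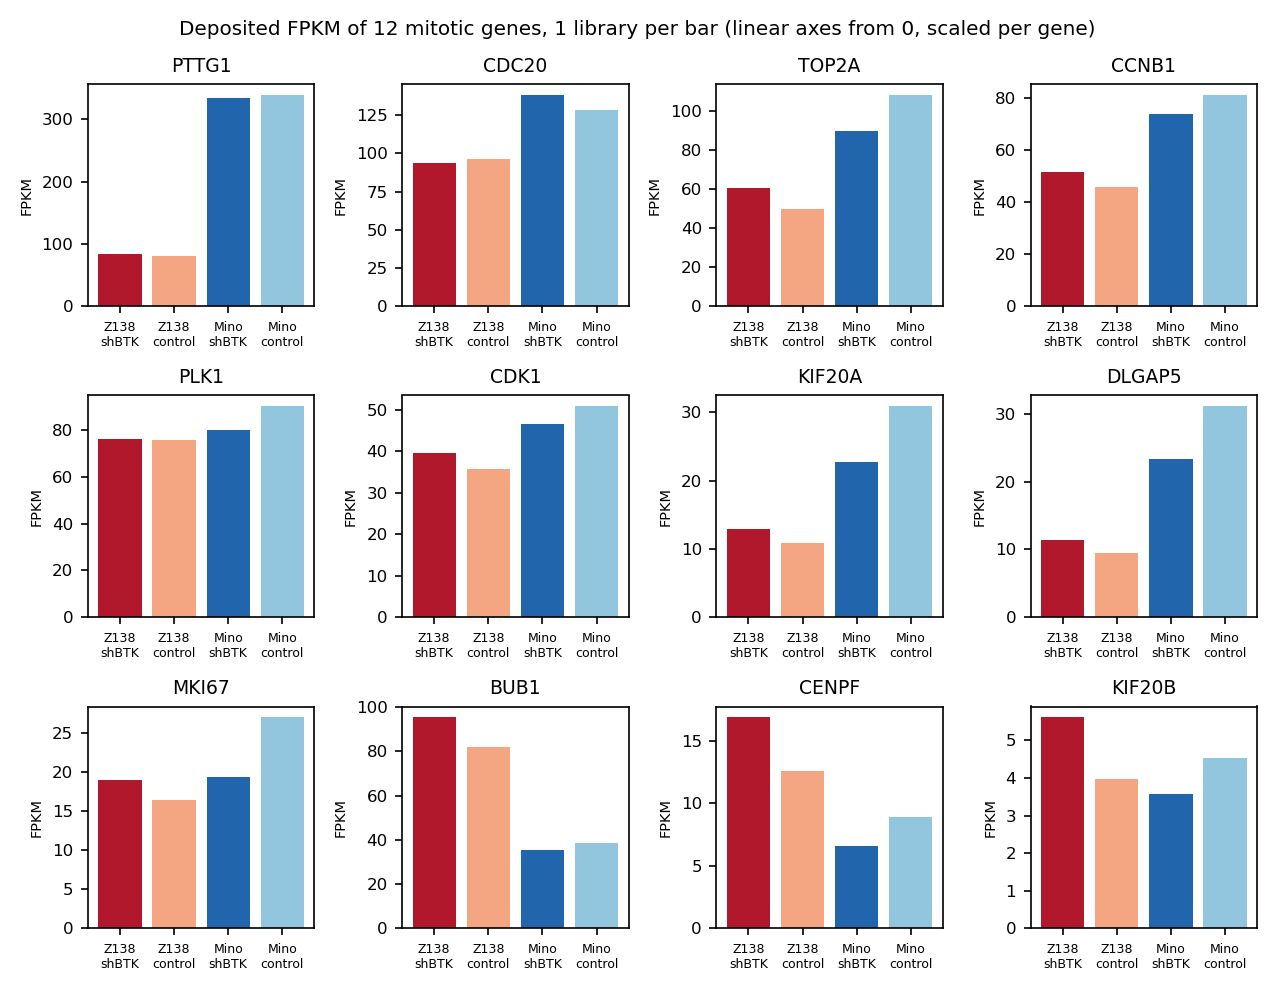
Deposited FPKM (vertical, from 0, scaled for each gene) of 12 of the genes in Z138 shBTK, Z138 control, Mino shBTK and Mino control, 1 library per bar. PTTG1 stands at 333 and 339 FPKM in the Mino libraries and about 80 in the Z138 libraries, BUB1 and CENPF are higher in Z138, and KIF20A, DLGAP5 and MKI67 show the lower Mino hairpin bar.

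GC content moved with the Z138 ratios. Over 10483 tested symbols above 0 in every library, the Z138 ratio had a Spearman rho of −0.57 with the GC content of the longest transcript, and the Mino ratio 0.11. The median GC content of the 48 genes was 42.6%, against 48.7% for all tested symbols, and among the 48 the Z138 ratio had a rho of −0.75 with it. These are descriptions across genes, which share the same libraries. The genes richest in GC, INCENP, CDC25B, CDC20, PLK1, FOXM1 and AURKB (55.6% to 59.6%), had Z138 log2 ratios between −0.16 and 0.00. At the other end, KIF20B (34.2%) and CENPE (35.3%) had the highest Z138 ratios of the 48. Transcript length moved with the ratios too, with a rho of 0.42 in Z138 and −0.40 in Mino among the 48.

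With trends of the ratio on GC content and length removed in each line, the lean was kept at a smaller size in Z138. Then 36 of the 48 genes were above control in Z138, against 59.0% of all symbols, 41 were below control in Mino, against 52.0%, and 32 did both, against 32.8%. The medians became 0.10 in Z138 and −0.14 in Mino, beside 0.03 and −0.01 over all symbols. Past a log2 ratio of 0.32, none of the 48 was then higher in Z138, against 3.54% of all symbols, and 4 were lower in Mino, against 5.83%. CENPF had corrected log2 ratios of 0.26 and −0.28, KIF20A 0.25 and −0.44, and MKI67 0.17 and −0.35 (Z138 and Mino). In Z138 ANLN, BUB3, KIF23 and MAD2L1 fell below control, while CDC20, CDC25B and INCENP rose above it. After the correction the Z138 ratio had a rho of −0.03 with GC content over all symbols. Among the 48 it was still −0.31, so the relation with GC content was not fully removed in these genes.

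**Figure D4:**
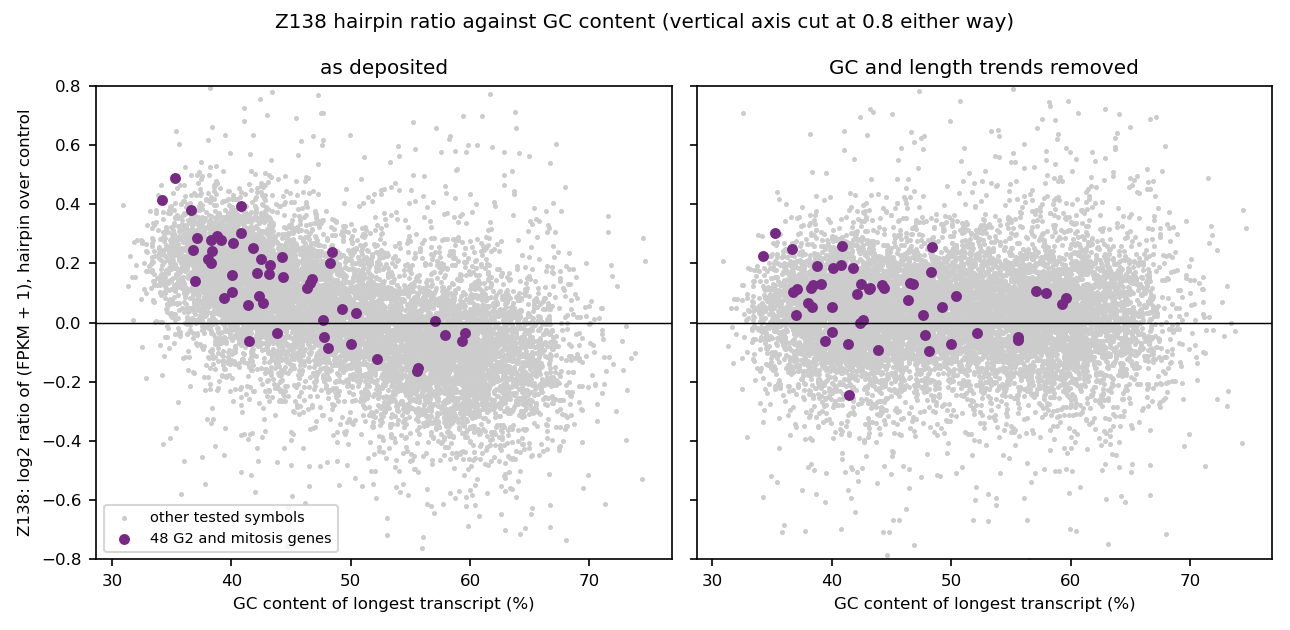
Z138 log2 ratio of (FPKM + 1), hairpin over control (vertical), against the GC content of the longest transcript in percent (horizontal), as deposited (left) and with GC and length trends removed (right), for the 48 genes (purple) and other tested symbols (grey). The left panel slopes down (rho −0.57 over all symbols, −0.75 among the 48), and in the right panel most purple points stay just above 0.

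The second comparison, from the same model, set the Z138 libraries against the Mino libraries. Most of the 48 genes were lower in Z138: 29 passed as lower and 5 as higher, where 38.8% and 28.7% of all symbols did. In all 34 of 48 passed in either direction, or 70.8%, near the 67.4% of all tested symbols. With median-of-ratios scaling 9 passed as higher and 26 as lower, where 3898 and 4009 of all 11484 symbols did. After rescaling to TPM 5 and 32 passed, where 2818 and 4940 of all symbols did. As deposited, the median difference of the 48 genes was −0.49 on the log2 scale, against −0.12 for all symbols. The model has 2 libraries per line, the hairpin and the control culture, and its p-values rest largely on a spread borrowed from all genes. Neither group has repeat cultures.

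PTTG1 differed most. It was at 83.5 and 80.8 FPKM in Z138 (shBTK and control) and at 333 and 339 in Mino, a log2 difference of −2.02 (SE 0.11, adjusted p = 2.56e-06 in limma). Its close copies PTTG2 and PTTG3P were at 0 to 0.195 FPKM, though reads can be shared among such copies. PRC1 was at 17.0 and 18.1 FPKM in Z138 and at 53.3 and 59.9 in Mino, a difference of −1.63 (SE 0.12, adjusted p = 1.10e-05 in limma). Its antisense gene PRC1-AS1, with overlapping exons, was at 4.35 and 3.85 FPKM in Z138 and at 12.9 and 12.7 in Mino. NDC80 was at 20.3 and 16.7 FPKM in Z138 and at 48.3 and 47.8 in Mino (−1.34, SE 0.13, adjusted p = 4.64e-05 in limma). For these genes both Z138 libraries lay below both Mino libraries. DLGAP5 and NUSAP1, a microtubule-bundling protein gene, completed the 5 lowest, with −1.30 (SE 0.17) and −1.19 (SE 0.12).

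In the other direction stood BUB1, at 95.6 and 82.2 FPKM in Z138 and at 35.2 and 38.7 in Mino, a log2 difference of 1.24 (SE 0.13, adjusted p = 8.14e-05 in limma). CENPF was at 16.9 and 12.6 FPKM in Z138 and at 6.59 and 8.89 in Mino (0.85, SE 0.19, adjusted p = 0.00466 in limma). CDC25B followed with 0.79 (SE 0.12), CKAP2 with 0.62 (SE 0.14) and ASPM with 0.58 (SE 0.16). These 5 were the members that passed as higher in Z138.

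**Figure D5:**
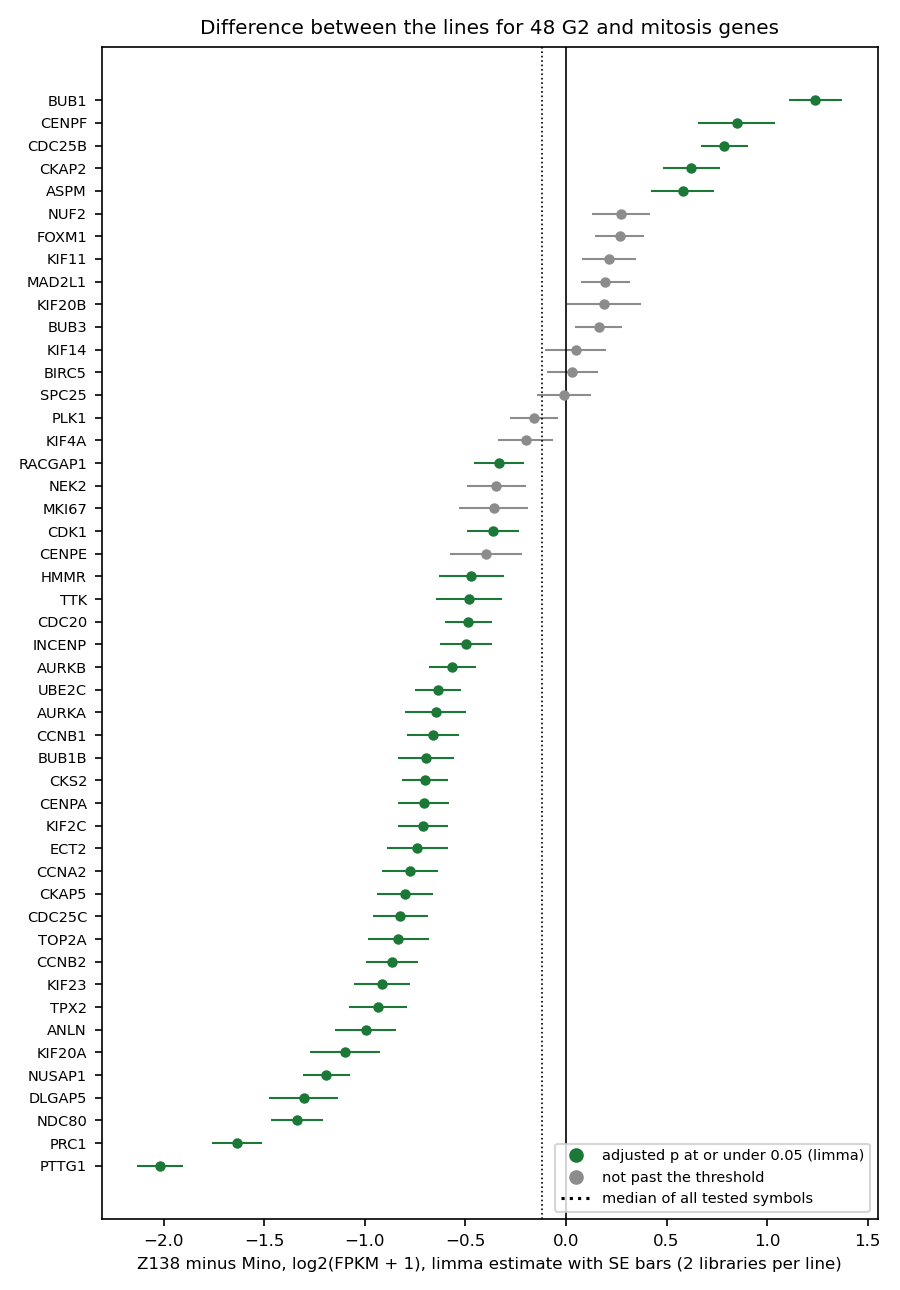
Limma estimate of the Z138 minus Mino difference in log2(FPKM + 1) (horizontal, bars are SE, 2 libraries per line) for each of the 48 genes (rows); green points passed at an adjusted p of 0.05 and the dotted line is the median of all tested symbols, −0.12. PTTG1 lies lowest at −2.02 and BUB1 highest at 1.24.

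Genes of one complex were spread widely in this comparison, and differences between them were not tested. Within the NDC80 complex, NDC80 was lower in Z138, while NUF2 (34.9 and 28.3 FPKM in Z138, 24.6 and 27.2 in Mino) and SPC25 (12.1 and 10.7, against 11.7 and 11.3) did not pass, with differences of 0.27 (SE 0.14) and −0.01 (SE 0.13). Within the spindle checkpoint BUB1 passed as higher, BUB1B (−0.69, SE 0.14) and TTK (−0.48, SE 0.16, not passing without a filter on low values) as lower, and MAD2L1 and BUB3 did not pass, though MAD2L1, like NUF2, passed as higher with median-of-ratios scaling. Of the chromosomal passengers, AURKB (−0.57, SE 0.12) and INCENP (−0.50, SE 0.13) passed as lower, and BIRC5 was nearly level at 0.03 (SE 0.13). Among the cyclins and kinases, CCNA2, CCNB1, CCNB2 and CDK1 passed as lower in Z138, with differences of −0.86 to −0.36, CDK1 not passing with median-of-ratios scaling (−0.24) or without a filter on low values. PLK1 did not pass (−0.16, SE 0.12, adjusted p = 0.271 in limma).

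Other genes of the same pathways were examined as 7 further lists. None of their tested genes passed for the hairpin in limma in either direction, where 0.0610% of all symbols passed in each, and 0 had an unadjusted p under 0.05, where 2.79% of all symbols did. Condensin and cohesin genes, which fold and hold chromosomes, were nearest to the 48: 12 of 20 were above control in Z138 and below it in Mino (10 with median-of-ratios scaling), with medians of 0.21 and −0.08. The condensin gene SMC4 was at 25.5 FPKM in Z138 shBTK against 20.0 in Z138 control, and at 33.3 in Mino shBTK against 37.1 in Mino control. After the GC and length correction 9 of the 17 with a GC value did so, with medians of 0.06 and −0.07. The cohesin gene STAG2 had the highest mean ratio of the list (0.33 in Z138 and 0.08 in Mino) and NCAPH2, a subunit of condensin II, the lowest (−0.17 and −0.04).

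In each of the remaining lists 4 to 7 genes were split between the lines as deposited, to be read beside the 32.1% of all tested symbols. Another 28 kinetochore genes had medians of 0.04 in Z138 and 0.07 in Mino, with 6 of 28 split as above; CENPK, of the inner kinetochore, was at 8.93 against 7.40 FPKM in Z138 and at 21.8 against 17.1 in Mino. SPC24, the remaining subunit of the NDC80 complex, had −0.20 and −0.18. Among 17 subunits and partners of the anaphase-promoting complex, medians were 0.12 and 0.04, with CDC23 (0.22 and 0.20) highest and UBE2S (−0.35 and −0.00) lowest in mean ratio. Genes that control mitotic entry (18 tested) had −0.02 and 0.02, with CHEK2 (0.07 and 0.32) and ENSA (−0.09 and −0.14) at the ends. MuvB, DREAM and NF-Y genes (14 tested) had 0.12 and 0.05, with LIN54, the subunit that binds TTTGAA, at 0.22 and 0.16 and NFYA at 0.04 and −0.36. Other spindle and cytokinesis genes (24 tested) had −0.10 and −0.06 as deposited, and 0.03 and −0.06 with the GC and length trends removed, when 11 of 23 were split. They ran from KIF15 (0.36 and 0.09) to the tubulin gene TUBB4B (−0.19 and −0.23).

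DNA replication and S phase genes, which act just before the phases described here, had medians of −0.02 in Z138 and 0.00 in Mino over 33 genes, with 7 of 33 above control in Z138 and below it in Mino. The primase gene PRIM1 (0.25 and 0.23) and UHRF1, a gene of DNA methylation upkeep (−0.21 and −0.26), were at the ends by mean ratio.

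Median ratios were close with and without TTTGAA, a comparison made without a test. The 29 genes with TTTGAA in the window had median log2 ratios of 0.16 in Z138 and −0.15 in Mino, and the 11 without it had 0.17 and −0.14. Of the genes shown above, KIF20A had no TTTGAA in its window and the second lowest Mino ratio, and MKI67, with TTTGAA matches, had the lowest.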

How the data were processed

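The authors deposited 1 table of FPKM values, 1 column per library, per the file headers. Per the submitters' processing notes, TopHat and hg19 were used; for the FPKM program and its annotation, none is given. Per the labels' protocols, libraries were built with an Illumina TruSeq RNA kit. FPKM are not counts and depth is unknown, so no counting interval is given.

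Values were analysed as log2(FPKM + 1), which understates changes of low genes. Limma 3.58.1 in R 4.3.3 (line and hairpin as additive terms, mean-variance trend) was fitted to the 11484 symbols averaging 1 FPKM or more, with Benjamini-Hochberg adjustment over all of them at 0.05. It leaves 1 residual degree of freedom per gene. Each hairpin library is paired with the control of its own line, and the 2 lines are the only replication. The limma step and the trend removal were tested on simulated data. Ratios within a line were described by size, past a log2 ratio of 0.32 or past 1.5-fold.

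GC content and length are those of a symbol's longest GENCODE 29 transcript; 94.0% of tested symbols had one, all 48 members among them. The correction removed cubic spline trends (5 degrees of freedom each) of the log2 ratio, limited to 1 either way. Promoter sequences are from RefSeq (GRCh38.p14), which is not the build of the files.

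The members, role groups and pathway lists were chosen with earlier results of these data known. Named genes were, per role, those with the highest level and the lowest and highest mean ratio, the 5 at each end of each line's ratios and of the line difference, and the ends of each pathway list at 5 FPKM or more; other members are given because the list is closed, and SMC4 and BRD8 were chosen after their values were seen. Alternatives were another pseudocount, filter and scaling, no symbols listed at 0, the GC and length correction and no line term; removing 1 trend alone was added after the data were seen.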

Additional observations from a re-analysis of the deposited data

Results flagged for a closer look

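The direction of the hairpin ratio differed between the lines. The median log2 ratio of the 48 genes was 0.15 in Z138 and −0.15 in Mino. The difference was not tested, since each line has 1 pair of libraries. CENPF, the large kinetochore protein gene, was past 0.32 in opposite directions, with 0.40 in Z138 and −0.38 in Mino, likewise untested. With the GC and length trends removed CENPF was past 0.32 in neither line, at 0.26 in Z138 and −0.28 in Mino. GC content and transcript length moved with the ratios, and their part beyond the correction given above was not tested. No group has the 4 samples that a check for a single outlying library needs.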

How the results depend on the processing

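No member was called for the hairpin in any of the alternatives, trends removed alone included, while 17 of the 48 genes changed the sign of a ratio in at least 1 of them. The share of members below control in Mino, above it in Z138 or both stayed within 1.5 times of the reported counts under every alternative, and the sign of both medians was kept. Members past a log2 ratio of 0.32 in Z138, 4 as reported, numbered 7 with a pseudocount of 0.1. At a mean of at least 5 FPKM they were 2 of the 45 members tested. They numbered 10 after rescaling to TPM, which moved the Z138 median of all symbols by 0.05. Without the GC and length trends they were 0, and likewise 0 without the GC trend alone. Of all symbols 5.32% were past it as reported and 3.54% without both trends. That share was not counted under the other settings. The Z138 median of 0.15 became 0.10 with median-of-ratios scaling, 0.10 without both trends and 0.081 without the GC trend alone; relative to all tested symbols it was 0.13 as reported, 0.0679 without both trends and 0.0501 without the GC trend alone. Members called higher in Z138 than in Mino were 9 with median-of-ratios scaling, against 5 as reported. Of all symbols 3898 were so called with that scaling, against 3293 as reported. Median-of-ratios scaling moved the median line difference of all symbols by 0.11, and TPM moved it by −0.11. Over all symbols, 14 were called for the hairpin as reported, 2 without a filter, 9 at 5 FPKM, 25 with median-of-ratios scaling, 28 without symbols listed at 0, 6 without both trends and 0 without the line term that serves as the replicate block (9 at an unadjusted p under 0.05, in limma). The causes were not tested. The Z138 ratios all rest on Z138 control, the library with EEF1A1 listed at 0, and cannot be had without it. Depth is unknown, so what it limits cannot be given.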
